A study of Mus musculus with 24 samples.

Results

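The genes described here are 10 paired receptors of myeloid cells, of the CD300, PIR, LILR and PILR families, in mouse blood monocytes. They were chosen by family name with earlier results of these data known, and they are not all the genes of these families. All 10 were found among the 53715 genes of the table, and all 10 were among the 11230 genes tested. A gene was tested if it reached a normalised read count of at least 50 in at least 1 library. The gene Cd300c2 was matched by its identifier, ENSMUSG00000044811.13, because the table lists it under the symbol Cd300d, and the other 9 were matched by symbol. The activating members were Cd300c2, Cd300e, Cd300lb, Cd300ld and Lilra5. The inhibitory members were Cd300a, Cd300lf, Pirb, Lilrb4a and Pilra.

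Paired receptors are related surface proteins of which some restrain and some stimulate the cell that carries them. The inhibitory receptors hold ITIM motifs in their tails that recruit phosphatases such as SHP-1, SHP-2 and SHIP-1, whereas the activating receptors have short tails and signal through the ITAM-bearing adaptors DAP12 or the Fc receptor gamma chain. Monocytes and macrophages use them to read lipids of dying cells, MHC class I molecules and other surface ligands.

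RNA was sequenced from monocytes sorted from the peripheral blood of C57BL/6 mice, 8 to 10 weeks old, in 24 libraries forming 6 groups of 4. Wild type (wt) littermates were compared with a Notch2 mutant (N2ΔMy), in which Cre under the Lyz2 promoter of myeloid cells deletes floxed Notch2, and the sorted cells of both genotypes carried GFP from the Cx3cr1 locus. Mice received Sham crème (Vaseline) or 50 mg per day of Aldara crème with 5% imiquimod (IMQ), a ligand of TLR7, on depilated skin for 4 to 5 days, and cells were taken on day 5. The labels give the control arm as Sham, while the study's methods in places call the sequenced controls untreated or naive, so the control may lack the crème. Ly6Chi monocytes, the classical subset that leaves the bone marrow, were sequenced from wt and N2ΔMy mice after Sham and after IMQ, and Ly6Clo monocytes, the patrolling subset that arises from them, from both genotypes after IMQ. Whether a library stood for 1 animal or a pool is not stated in the sources used here, so p-values measure only the spread between these libraries.

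The normalised counts summed to between 13273508 and 14651770 per library. For 19 of the 24 libraries the table held an inferred 9524061 to 19756688 reads, with a median of 15193232, and for the other 5 (wt Ly6Chi IMQ replicates 2 and 3, N2ΔMy Ly6Chi IMQ replicates 3 and 4 and wt Ly6Clo replicate 2) the depth could not be determined from the values. Notch2 itself was only partly reduced, by 0.71 (log2) in Ly6Chi cells after Sham, by 0.87 in Ly6Chi cells after IMQ and by 0.72 in Ly6Clo cells, and it passed the test each time (limma, adjusted p = 0.0408, 0.0194 and 0.00306). Its target Hes1 was lower by 1.18 in N2ΔMy Ly6Clo cells (adjusted p = 0.00113). Hes1 did not pass the test in Ly6Chi cells. There the median log2 difference of Notch2 and Hes1 was −0.89 after Sham and −1.12 after IMQ. The 5 Ly6Chi markers (Ly6c2 and Ccr2 among them) were all lower, and the 7 Ly6Clo markers (Nr4a1, Spn, Ace, Itgal, Cd274, Pou2f2 and Treml4) all higher, in Ly6Clo than in Ly6Chi cells of both genotypes. The N2ΔMy Ly6Clo libraries stood between the subsets in these markers. Their Ly6Clo markers summed to 83081 to 99991 against 148092 to 169632 in wt Ly6Clo libraries, and their Ly6Chi markers to 5977 to 8550 against 427 to 1462. Their 8 macrophage markers did not lie between the subsets. These summed to 7932 to 11919, against 3975 to 6166 in wt Ly6Clo libraries and at most 4216 in Ly6Chi libraries. Among other cells, T cell markers Cd3e, Cd3g and Trac were listed at 0 in every library, and NK cell and mast cell or basophil markers stayed under 50 throughout. B cell markers summed to 55 to 176, platelet markers to 21 to 254 and erythroid markers to 0 to 1547 per library, and the monocyte genes Csf1r, Cx3cr1 and Itgam to 21839 to 44377. Cells had been sorted as CD115+ and CD11b+ by Ly6C, MHC-II and, for Ly6Chi cells, CD43 (Spn), so Ly6c2 and Spn reflect the gate.

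The 6 CD300 members lie in a cluster of 243.952 kb on chromosome 11 (114890041 to 115133992, GRCm38), 5 of them on the minus strand. Pirb (chromosome 7, 3711409 to 3720391, minus strand) and Lilra5 (chromosome 7, 4237754 to 4243463, plus strand) lie close to each other, while Lilrb4a (chromosome 10, 51490956 to 51496611) and Pilra (chromosome 5, 137821952 to 137836281) lie elsewhere. The sequences shown are the bases just before the start of the 4 members that were higher after IMQ in both genotypes, on the minus strand of GRCm38.p6, from RefSeq promoters. Each was cut where either RefSeq or the table starts the gene, so their lengths are 112 bases for Cd300e (chr11:115062178-115062289), 214 for Cd300ld (chr11:114989923-114990136), 250 for Cd300lf (chr11:115133993-115134242) and 247 for Pilra (chr5:137836282-137836528). Capitals mark matches to 5 short motifs, named for the factors known to bind them.
Cd300e: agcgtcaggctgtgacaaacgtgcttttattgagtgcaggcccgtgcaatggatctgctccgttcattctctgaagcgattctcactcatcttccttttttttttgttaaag
Cd300ld: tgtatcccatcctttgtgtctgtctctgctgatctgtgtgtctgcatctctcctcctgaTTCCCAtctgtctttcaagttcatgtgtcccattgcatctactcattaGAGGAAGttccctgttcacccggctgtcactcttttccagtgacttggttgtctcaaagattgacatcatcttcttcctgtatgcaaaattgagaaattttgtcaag
Cd300lf: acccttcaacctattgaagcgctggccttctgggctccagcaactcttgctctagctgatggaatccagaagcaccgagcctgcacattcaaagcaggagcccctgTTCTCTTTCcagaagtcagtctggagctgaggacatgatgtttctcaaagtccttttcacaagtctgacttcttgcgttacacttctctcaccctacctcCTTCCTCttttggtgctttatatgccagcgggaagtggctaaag
Pilra: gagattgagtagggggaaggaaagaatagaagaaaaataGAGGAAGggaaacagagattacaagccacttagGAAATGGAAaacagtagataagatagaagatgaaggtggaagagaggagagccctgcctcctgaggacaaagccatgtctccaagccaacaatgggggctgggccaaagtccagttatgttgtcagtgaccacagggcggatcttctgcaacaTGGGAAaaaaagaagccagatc

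The motifs were searched on both strands of the 250 bases before the RefSeq start, in the 9 members with an entry and in 32851 promoters. The PU.1 motif GAGGAAG, of a master factor of myeloid cells, was present in 5 of the 9 (Cd300a, Cd300ld, Cd300lf, Pirb and Pilra) and in 10.6% of all promoters. The RBPJ motif TGGGAA, of the factor through which Notch receptors act, was present in Cd300a, Cd300ld and Pilra and in 21.6% of all. The motif GAAANNGAA of the interferon regulatory factors was present in Cd300lf and Pilra and in 7.13% of all. The NR4A motif AAGGTCA, of the family of the Ly6Clo factor Nr4a1, was found in Cd300c2 and in 4.08% of all, and the AP-1 motif TGANTCA in none of the 9 and in 6.75% of all. Cd300e, Cd300lb and Lilra5 held no match, and no matches overlapped. These are matches of letters only.

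The members differed widely in level, and their order turned over between the subsets. Divided by gene length, Pirb was the highest of the 10 in all 4 Ly6Chi groups, with 31.8% ± 1.73 (SD, n = 4) of the members' summed level per kb in wt Ly6Chi cells after Sham. Cd300a came next there with 20.9% ± 0.995, and Cd300e was the lowest with 0.197% ± 0.216. In wt Ly6Clo cells Cd300ld led with 27.4% ± 4.39 and Cd300e followed with 26.1% ± 1.68, while Pirb made up 8.08% ± 1.23. Reads of Pirb could be shared with Pira1, Pira2 and Lilra6, those of Lilrb4a with Lilr4b and those of Pilra with Pilrb1 and Pilrb2, which are near-identical copies, so the levels of these 3 members are less certain.

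**Figure D1:**
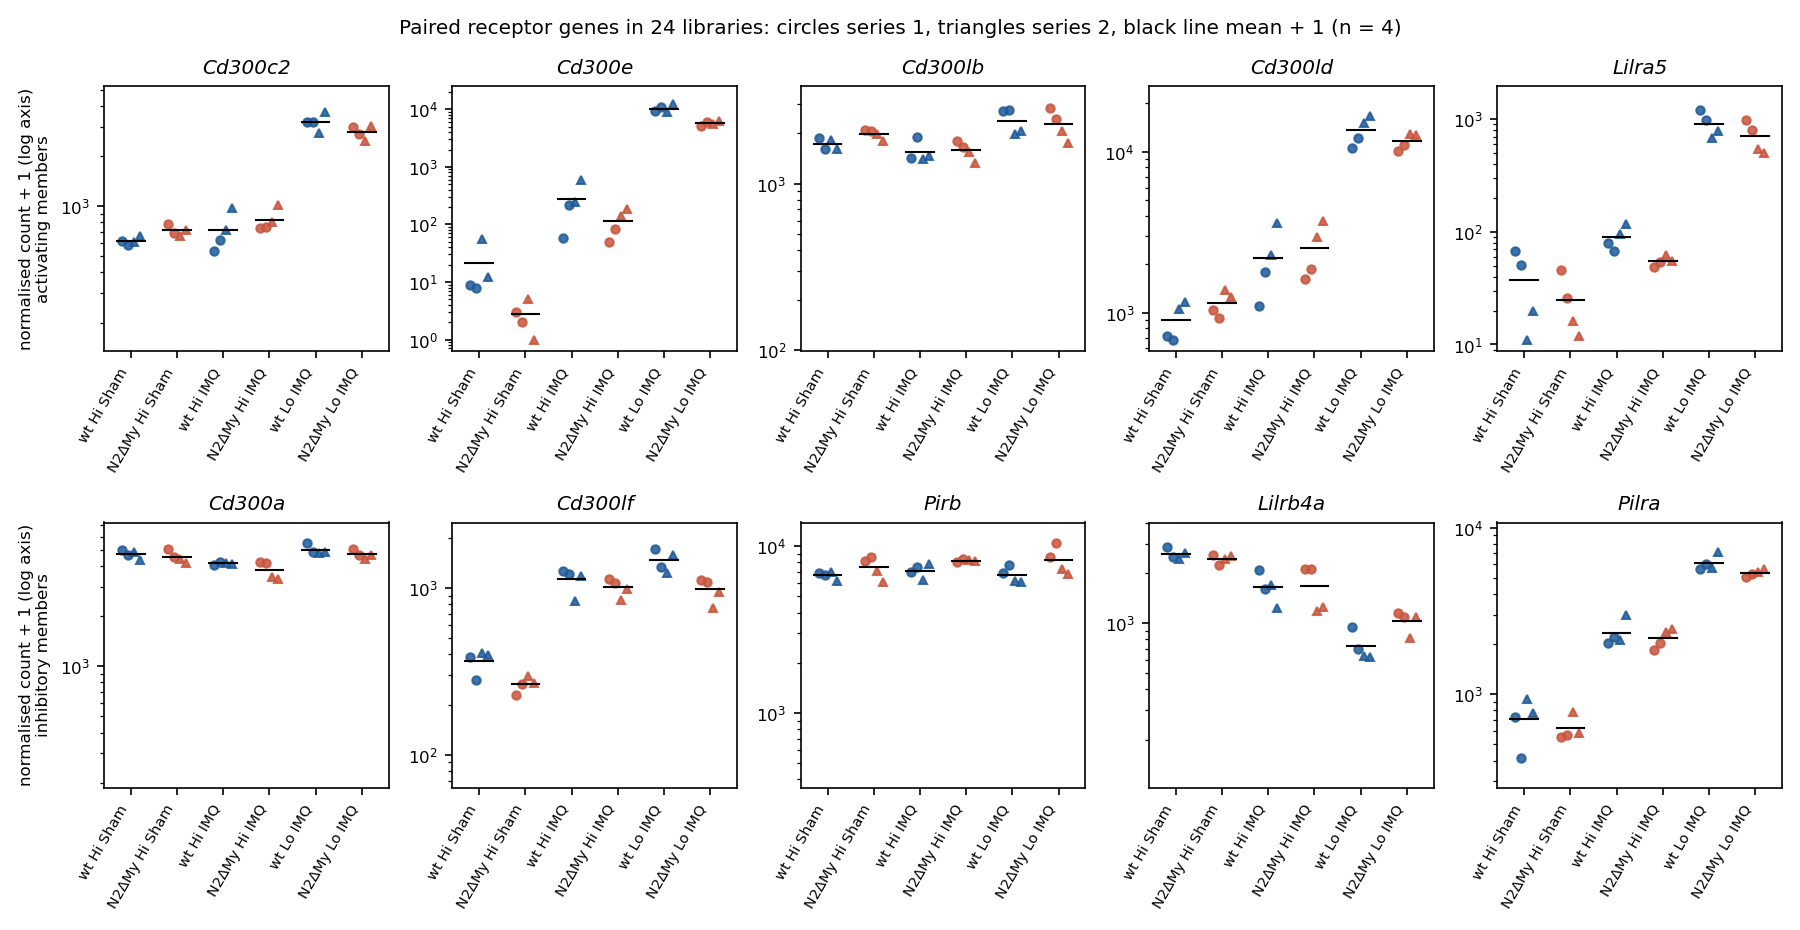
Normalised read count plus 1 of each member on a log axis that differs by panel, with the activating members in the upper row and the inhibitory members in the lower, wt in blue and N2ΔMy in red, circles for library series 1 and triangles for series 2, and the black line at the mean of 4 libraries. Cd300e spans from 0 to 12189 across the groups, whereas Pirb stays between 6089 and 10395.

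Together, the 5 activating members took 30.5% ± 1.67 (SD, n = 4) of the summed level per kb in wt Ly6Chi cells after Sham, 35.2% ± 6.38 after IMQ and 73.5% ± 2.00 in wt Ly6Clo cells. In N2ΔMy mice the shares were 33.6% ± 1.98, 36.5% ± 5.04 and 67.9% ± 2.16. The Ly6Clo libraries, at 65.5% to 75.9%, all lay above the Ly6Chi libraries, at 27.2% to 42.5%, and the wt Ly6Clo libraries, from 71.1% up, lay above all of those of N2ΔMy. Without Cd300e and Cd300ld the share was 40.7% to 44.3% in wt and 38.0% to 42.9% in N2ΔMy Ly6Clo cells, which overlap. In Ly6Chi cells it was then 20.3% to 24.6% in wt and 22.8% to 25.4% in N2ΔMy after IMQ, and 24.4% to 25.6% in wt and 26.4% to 28.6% in N2ΔMy after Sham, so the subsets stayed apart, by less than with these genes. The inhibitory members' summed level per kb was also higher in wt Ly6Clo cells, at 4967 ± 242 against 3764 ± 251 in wt Ly6Chi cells after IMQ, and the activating members' level was 13845 ± 1630 against 2098 ± 655. Levels in bulk RNA cannot separate fewer cells of a type from less RNA per cell.

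**Figure D2:**
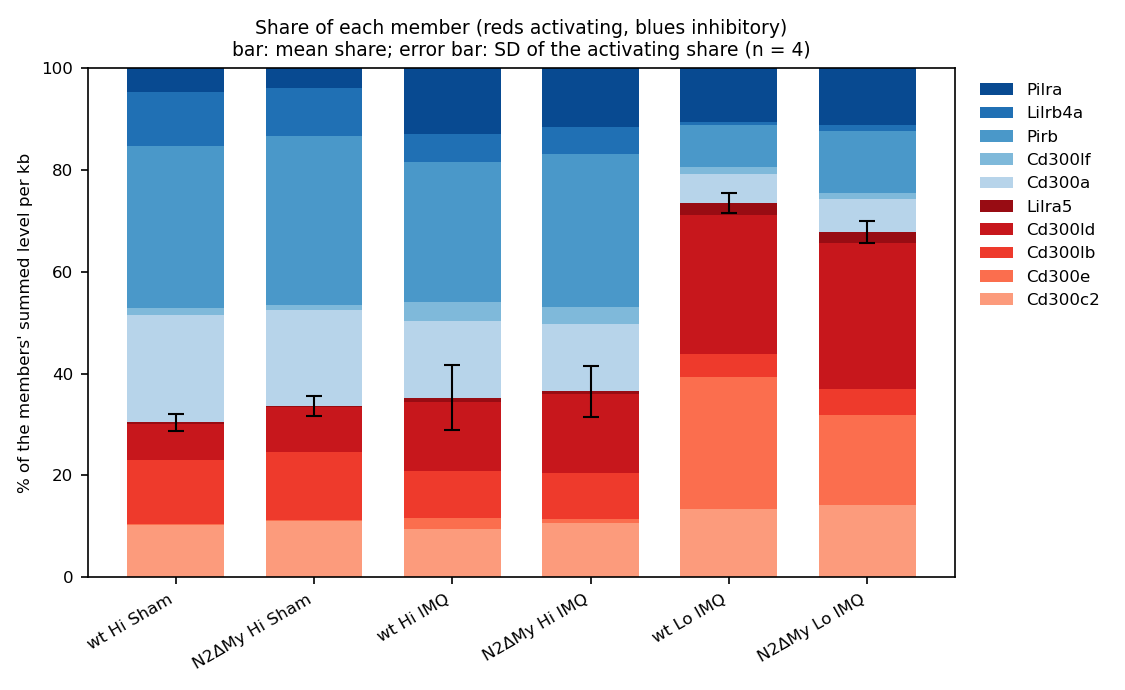
Share of each member in the summed level per kb of the 10 members (percent, mean of 4 libraries) in the 6 groups, with activating members in reds, inhibitory members in blues and the error bar showing the SD of the activating share. The activating share is 30.5% in wt Ly6Chi cells after Sham and 73.5% in wt Ly6Clo cells after IMQ.

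The first comparison asked what imiquimod on the skin changed in the Ly6Chi cells of the blood. In wt mice 4 of the 10 members rose (Cd300e, Cd300ld, Cd300lf and Pilra), 1 fell (Lilrb4a) and 5 did not pass the test, which required an adjusted p of at most 0.05 over all genes and a log2 difference of at least 0.6. Over all genes tested, 4.43% were called higher and 5.07% lower. In N2ΔMy mice the same 4 rose, none fell and 6 did not pass, with 4.15% of all genes called higher and 4.55% lower. The median log2 difference of the members was 0.69 in wt and 0.64 in N2ΔMy, against 0.01 and 0.005 over all genes. Both signalling types were among the members that rose.

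Cd300lf, an inhibitory receptor for ceramide and phosphatidylserine, had normalised counts of 383, 281, 406 and 396 in wt Ly6Chi cells after Sham and of 1271, 1207, 841 and 1184 after IMQ. In N2ΔMy the counts were 226, 265, 296 and 269 after Sham and 1128, 1073, 851 and 985 after IMQ. The groups did not overlap in either genotype. The log2 difference was 1.61 ± 0.16 (SE, limma, adjusted p = 0.000148) in wt and 1.93 ± 0.12 (adjusted p = 3.07e-05) in N2ΔMy, which are ratios of means of 3.07 and 3.82.

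Pilra, an inhibitory receptor that binds sialylated ligands, stood at 726, 414, 931 and 770 in wt after Sham and at 2035, 2215, 2125 and 2996 after IMQ. In N2ΔMy it went from 554, 566, 784 and 586 to 1837, 2020, 2365 and 2449. Again every IMQ library was above every Sham library. Pilra rose by 1.76 ± 0.22 in log2 (SE, adjusted p = 0.000549) in wt and by 1.80 ± 0.14 (adjusted p = 5.92e-05) in N2ΔMy. Its close copies Pilrb1 and Pilrb2, which are activating, were not called (0.49 and 0.57 in wt, 0.28 and 0.50 in N2ΔMy).

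Cd300ld, which signals through the Fc receptor gamma chain, had 711, 674, 1055 and 1157 counts after Sham and 1103, 1782, 2282 and 3618 after IMQ in wt. In N2ΔMy it had 1040, 921, 1372 and 1254 after Sham and 1625, 1855, 2953 and 3702 after IMQ. The wt groups overlapped by 1 library on each side and the N2ΔMy groups did not overlap. The log2 difference was 1.20 ± 0.31 (SE, adjusted p = 0.0260) in wt and 1.08 ± 0.25 (adjusted p = 0.0161) in N2ΔMy. Replicates 3 and 4 of each group were handled here as a second library series, for which no date or batch is given. They were above replicates 1 and 2 in 6 of 6 groups, and the difference was 1.02 within the first series and 1.38 within the second in wt. The wt call was lost when any 1 of 5 libraries was left out, with an adjusted p of 0.0513 to 0.0734 (wt Sham replicate 1 or 2, or wt IMQ replicate 2, 3 or 4), and the N2ΔMy call without Sham replicate 2 (adjusted p = 0.0530). The wt call was also lost without the variance trend (adjusted p = 0.0666), and both when genes of any level were tested (adjusted p = 0.193 and 0.134).

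Cd300e, an activating receptor of monocytes that pairs with DAP12, was close to absent after Sham, with 8, 7, 54 and 11 counts in wt and 2, 1, 4 and 0 in N2ΔMy. After IMQ it reached 58, 214, 242 and 589 in wt and 49, 81, 139 and 181 in N2ΔMy. Every IMQ library of a genotype was above its Sham libraries, although the highest wt Sham library, with 54, came close to the lowest wt IMQ library, with 58. On the log2(count + 1) scale the difference was 3.81 ± 0.74 (SE, adjusted p = 0.00577) in wt and 5.43 ± 0.59 (adjusted p = 0.000316) in N2ΔMy. At such low counts the size depends on the added constant. With 10 added instead of 1 it was 3.11 in wt and 3.25 in N2ΔMy, and with 0.1 added it was 3.91 and 6.66. Across the 8 fits that each left out 1 wt library it lay between 3.30 and 4.44 and stayed past the threshold, which it missed when genes of any level were tested (adjusted p = 0.0798).

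Lilrb4a, an inhibitory receptor of the gp49 pair, went the other way. Its counts were 2858, 2482, 2417 and 2615 in wt after Sham and 2077, 1600, 1695 and 1230 after IMQ. The wt groups did not overlap and the difference was −0.67 ± 0.14 (SE, adjusted p = 0.00832). The call was lost without wt IMQ replicate 4 (−0.54), within the first library series (−0.55) and when genes of any level were tested (adjusted p = 0.0774). In N2ΔMy it had 2565, 2228, 2430 and 2507 counts after Sham and 2117, 2120, 1183 and 1255 after IMQ, without overlap, but with a difference of −0.60 ± 0.19 that missed the threshold (adjusted p = 0.0687) and passed it without IMQ replicate 1 or 2 (adjusted p = 0.0341 and 0.0365). That difference was −0.17 in the first library series and −1.02 in the second, which alone passed (adjusted p = 0.00436).

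Lilra5, an activating receptor of the LILR family, was low in Ly6Chi cells, with 66, 50, 10 and 19 counts after Sham and 79, 67, 94 and 116 after IMQ in wt, and 45, 25, 15 and 11 against 48, 53, 61 and 54 in N2ΔMy. The groups did not overlap, yet the Sham libraries of the second series were lower than those of the first, so the difference in wt was 0.34 in the first series and 2.83 in the second. In N2ΔMy it was 0.57 and 2.08. The log2 difference was 1.58 ± 0.52 (SE, adjusted p = 0.0626) in wt and 1.32 ± 0.41 (adjusted p = 0.0575) in N2ΔMy. With the replicate number as a block both passed (adjusted p = 0.0241 and 0.0470), as they did without Sham replicate 1 of the genotype (adjusted p = 0.0268 and 0.0149), within the second series, with the series as a covariate and with all 24 libraries in one fit.

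The other 4 members were not called in either genotype. Cd300a, an inhibitory receptor for phosphatidylserine and phosphatidylethanolamine, differed by −0.18 in wt and −0.26 in N2ΔMy. Cd300lb, which pairs with DAP12, differed by −0.17 and −0.33. Cd300c2, also of the DAP12 type, differed by 0.18 and 0.20, and Pirb, the inhibitory receptor for MHC class I, by 0.08 and 0.14. For Pirb the 95% intervals of the difference ran from −0.12 to 0.28 in wt and from −0.10 to 0.38 in N2ΔMy.

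**Figure D3:**
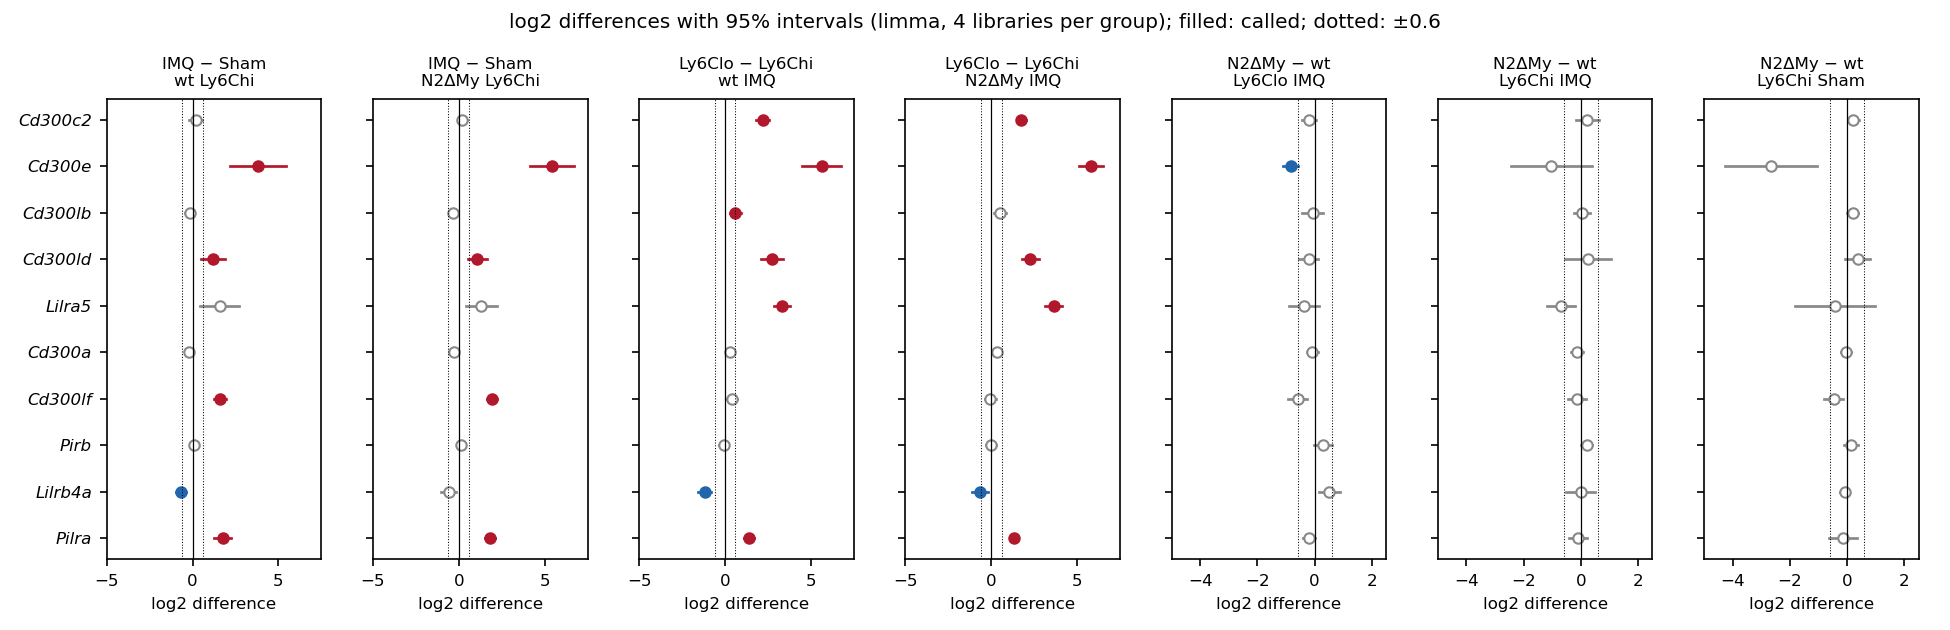
Log2 difference of each member (x axis, 4 libraries per group) with its 95% interval from limma in the 7 comparisons of 2 groups, filled red where called higher, filled blue where called lower and open grey where not called, with dotted lines at 0.6 in either direction. Cd300e, Cd300ld, Cd300lf and Pilra are red in both IMQ minus Sham panels, and the 3 panels of N2ΔMy minus wt, drawn on a narrower x axis, hold 1 filled point, Cd300e in Ly6Clo cells.

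No signalling partner of these receptors was called after IMQ. None of the adaptors Tyrobp (DAP12), Hcst (DAP10) and Fcer1g was called after IMQ in either genotype, with log2 differences of −0.01, 0.26 and 0.07 in wt and 0.04, −0.03 and 0.20 in N2ΔMy. None of the phosphatases Ptpn6 (SHP-1), Ptpn11 (SHP-2) and Inpp5d (SHIP-1) was called, at 0.18, −0.01 and −0.01 in wt and 0.19, −0.18 and −0.03 in N2ΔMy. None of the 7 kinases and effectors and none of the 8 other CD300, PIR, LILR and PILR genes tested was called. Of 10 ligand genes tested, 2 fell in wt, the scavenger receptor Colec12 (−1.96) and the integrin Itgb3 (−0.94), and 1 in N2ΔMy, Itgb3 (−0.94). Of 11 other inhibitory myeloid receptors, 3 rose in wt, the collagen receptor Lair1 (1.49), Siglece (1.03) and Ceacam1 (0.80), and 2 in N2ΔMy, Lair1 (1.37) and Siglece (0.76).

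Other markers moved with the treatment. Of 12 neutrophil markers 7 (Ly6g, Retnlg, Camp, Ngp, Cxcr2, Mpo and Elane) stayed under 50 in all libraries, while S100a8 and S100a9 rose by 8.46 and 9.59 in log2 in wt and by 8.55 and 9.10 in N2ΔMy. The 12 together summed to 5533 to 6290 in wt after Sham and to 5391 to 8764 after IMQ, which overlap. In N2ΔMy they summed to 4838 to 5404 after Sham and to 5833 to 9054 after IMQ, without overlap. The 7 Ly6Clo markers summed to 31861 to 35166 in wt Ly6Chi cells after Sham and to 32302 to 48251 after IMQ, with 2 of the 7 called higher in wt (Spn and Cd274) and 0 in N2ΔMy, where the sums were 21698 to 27108 and 22570 to 33297. Dendritic cell markers went down, from 823 to 1483 after Sham to between 270 and 531 after IMQ in wt. Of 7 macrophage markers tested, 1 was lower in wt (Mrc1), and 2 were higher (Mertk and Adgre1) and 1 lower (Mrc1) in N2ΔMy, where the neutrophil marker Mmp9 (2.98) and the platelet marker Ppbp (2.79) were higher too. The Ly6Chi markers Vcan and Mmp8 were higher in both genotypes. The part of these markers in the changes of the receptors was not tested.

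The second comparison set Ly6Clo against Ly6Chi cells after IMQ, and shares its Ly6Chi IMQ libraries with the first. In wt 6 of the 10 members were higher in Ly6Clo cells (Cd300c2, Cd300e, Cd300lb, Cd300ld, Lilra5 and Pilra), 1 was lower (Lilrb4a) and 3 did not pass, against 11.9% of all genes called higher and 12.7% lower. In N2ΔMy 5 were higher, the same without Cd300lb, 1 was lower (Lilrb4a) and 4 did not pass, against 9.01% and 8.38% of all genes. The median log2 difference of the members was 1.01 in wt and 0.91 in N2ΔMy, against −0.01 over all genes in both. All 5 activating members were called higher in wt, and 1 of the 5 inhibitory members. Of 7 macrophage markers tested, 2 were higher and 1 lower in wt Ly6Clo cells and 6 were higher in those of N2ΔMy (median log2 difference 0.99 and 4.75), and of 5 dendritic cell markers tested 3 rose in N2ΔMy, against 1 that rose and 1 that fell in wt (median 2.92 and 0.84). Of 5 neutrophil markers tested, 2 were lower in wt (S100a8 and S100a9), and 3 were lower (these and Csf3r) and 1 higher (Mmp9) in N2ΔMy, and the sum over all 12 went from 5391 to 8764 in wt Ly6Chi cells to between 2978 and 3973 in wt Ly6Clo cells. The part of these markers in the differences of the receptors was not tested.

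Cd300e had the largest difference of the members. Its counts of 58, 214, 242 and 589 in wt Ly6Chi cells compare with 9217, 10794, 8919 and 12189 in wt Ly6Clo cells, a ratio of means of 37.3. In N2ΔMy it went from 49, 81, 139 and 181 to 5201, 5914, 5504 and 6247, a ratio of 50.8. The groups were far apart, with log2 differences of 5.63 ± 0.52 (SE, adjusted p = 1.51e-05) in wt and 5.82 ± 0.32 (adjusted p = 7.48e-07) in N2ΔMy.

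Lilra5 had 1197, 978, 684 and 784 counts in wt Ly6Clo cells and 989, 802, 542 and 496 in those of N2ΔMy. These were 10.2 and 13.1 times the Ly6Chi means, with log2 differences of 3.34 ± 0.21 (SE, adjusted p = 1.41e-06) and 3.63 ± 0.22 (adjusted p = 1.17e-06). No Ly6Chi library came above 116.

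Cd300ld reached 10522, 12202, 15097 and 16823 in wt Ly6Clo cells, 6.22 times the Ly6Chi mean, and 10112, 10963, 12987 and 12757 in N2ΔMy, 4.62 times. The log2 differences were 2.74 ± 0.30 (SE, adjusted p = 4.59e-05) and 2.28 ± 0.23 (adjusted p = 3.72e-05). Cd300c2 reached 3190, 3189, 2745 and 3667 in wt and 2992, 2706, 2451 and 3003 in N2ΔMy, against 535 to 1019 in the Ly6Chi libraries after IMQ. Its log2 differences were 2.19 ± 0.17 (SE, adjusted p = 4.32e-06) and 1.76 ± 0.12 (adjusted p = 3.05e-06). For both genes the Ly6Clo libraries lay well above all Ly6Chi libraries. Cd300c2, unlike Cd300ld, had not been called after IMQ in Ly6Chi cells.

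Pilra, the inhibitory member that was higher, had 5625, 6015, 5735 and 7148 counts in wt Ly6Clo cells and 5028, 5287, 5390 and 5606 in those of N2ΔMy. The log2 differences were 1.40 ± 0.13 (SE, adjusted p = 1.67e-05) and 1.31 ± 0.11 (adjusted p = 8.53e-06), and no Ly6Chi library came above 2996. Cd300lb had the smallest log2 difference among the calls in wt. It stood at 2711, 2769, 1983 and 2064 in wt Ly6Clo cells against 1432, 1909, 1404 and 1463, a difference of 0.61 ± 0.14 (SE, adjusted p = 0.00633) just past the size required, and fell to between 0.53 and 0.59 when any 1 of 5 libraries was left out (wt Ly6Chi IMQ replicate 1, 3 or 4, or wt Ly6Clo replicate 1 or 2). It was also lost within the second library series (0.50), with TMM scaling (0.597) and when genes of any level were tested (adjusted p = 0.0532). In N2ΔMy the difference was 0.51 ± 0.15 (adjusted p = 0.0333), just short of it, and it passed without Ly6Clo replicate 4 (0.63) and within the first series (0.61).

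Lilrb4a was lower, with 950, 694, 635 and 626 counts in wt Ly6Clo cells, a difference of −1.18 ± 0.17 (SE, adjusted p = 0.000380) from Ly6Chi cells. In N2ΔMy Ly6Clo cells it had 1147, 1091, 809 and 1086 counts and the difference was −0.65 ± 0.21 (adjusted p = 0.0411). The groups did not overlap in either genotype, but the N2ΔMy call was lost when any 1 of 6 libraries was left out (Ly6Chi IMQ replicate 1 or 2, or any Ly6Clo replicate), with an adjusted p of 0.0582 to 0.106, and also within the second series (−0.38), without the variance trend (adjusted p = 0.0864) and when genes of any level were tested (adjusted p = 0.224). Within the N2ΔMy Ly6Chi libraries the first series had 2117 and 2120 counts and the second 1183 and 1255.

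Cd300a, Cd300lf and Pirb, all inhibitory, were not called. Cd300a differed by 0.26 in wt (adjusted p = 0.0243, under the size required) and 0.31 in N2ΔMy (adjusted p = 0.0508). Cd300lf, with 1719, 1340, 1234 and 1589 counts in wt Ly6Clo cells, differed by 0.39 (adjusted p = 0.0659) in wt and by −0.05 in N2ΔMy. The IMQ libraries of both subsets lay between 762 and 1719 and the Sham libraries, all of Ly6Chi cells, between 226 and 406. Pirb differed by −0.08 and −0.002.

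The neighbouring genes of these families split in the same comparison. Cd300ld3, listed under the symbol Cd300lh, rose from 4, 7, 16 and 38 counts to 332, 327, 717 and 1294 in wt (5.47, adjusted p = 6.54e-05), while Cd300lg was lower (−2.28). Of 4 PIR and LILR relatives 3 were lower in wt (Pira2 at −1.23, Lilra6 at −1.29 and Lilr4b at −1.27) and 0 in N2ΔMy. The activating partners Pilrb1 and Pilrb2 were higher by 1.34 and 1.68 in wt and by 1.39 and 1.52 in N2ΔMy, next to 1.40 and 1.31 for Pilra.

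Among the signalling genes, 1 of 3 adaptors was higher in wt, Fcer1g (0.85), with Hcst at 0.41 and Tyrobp at 0.09, and 0 of 3 in N2ΔMy, with 0.51, 0.15 and −0.16. Ptpn6 and Ptpn11 were higher in wt (0.63 and 1.05) with Inpp5d at 0.40, and Ptpn11 alone in N2ΔMy (0.87), with Ptpn6 at 0.41 and Inpp5d at 0.47. Among the kinases and effectors, Syk, which ITAM-bearing adaptors recruit, was higher in wt (0.65) and differed by 0.40 in N2ΔMy, under the size required.

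Of 10 ligand genes 5 were higher and 1 lower in wt, led by Fn1 (−5.29), Itgb3 (2.74), Itgav (1.04) and H2-K1 (0.99), and 4 were higher and 2 lower in N2ΔMy. The integrin chains Itgav and Itgb3 form a ligand of the gp49 receptor, and H2-K1 is an MHC class I molecule. Of 11 other inhibitory myeloid receptors 6 were higher and 1 lower in wt, led by the B cell and myeloid receptor Cd72 (7.64), Pecam1 (5.80), Cd200r1 (−3.35) and Siglece (2.71), and 6 were higher and 0 lower in N2ΔMy.

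The third comparison asked what loss of Notch2 changed. In Ly6Clo cells after IMQ 1 of the 10 members was called, Cd300e, which was lower in N2ΔMy, while 1.67% of all genes were called lower and 3.12% higher. The counts were 9217, 10794, 8919 and 12189 in wt and 5201, 5914, 5504 and 6247 in N2ΔMy, with no overlap and with wt at 1.80 times the mutant mean. The log2 difference was −0.84 ± 0.12 (SE, adjusted p = 0.00203), and it was lower in 4 of 4 same-numbered pairs, by −0.70 to −0.96. The difference was −0.85 within the first library series and −0.83 within the second, where 4 libraries gave an adjusted p of 0.0512. With all 24 libraries in one fit, which include those with counts near 0, its adjusted p was 0.453.

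Cd300lf came next. Its 1125, 1092, 762 and 942 counts in N2ΔMy Ly6Clo cells were below all 4 wt libraries (1719, 1340, 1234 and 1589), a difference of −0.59 ± 0.15 (SE, adjusted p = 0.0420) that fell just short of the 0.6 required and passed it, at −0.67, without wt replicate 3. Lilrb4a pointed the other way, by 0.52 ± 0.16 (SE, adjusted p = 0.0910), and was higher in 4 of 4 same-numbered pairs, with 1147, 1091, 809 and 1086 counts against 950, 694, 635 and 626. It was called when wt replicate 1 or N2ΔMy replicate 3 was left out (0.65 and 0.63).

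The other 7 members did not pass, although 6 of them, all but Cd300lb, differed in one direction in 4 of 4 same-numbered pairs, as did 35.3% of all genes. At an unadjusted p under 0.05 there were 3 members and 2192 of 11230 genes, and 8 members and 3406 genes once the replicate number was a block. Under the block Cd300e was again the 1 member called, among 939 genes. Pilra differed by −0.20, and its groups (5028 to 5606 against 5625 to 7148) did not overlap. Pirb differed by 0.29, Lilra5 by −0.39, Cd300ld by −0.21 (10112 to 12987 against 10522 to 16823), Cd300c2 by −0.20, Cd300a by −0.08 and Cd300lb by −0.07. In all, the groups of 3 members did not overlap (Cd300e, Cd300lf and Pilra), against 12.8% of all genes. The median difference over the 10 members was −0.20, against −0.003 over all genes.

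**Figure D4:**
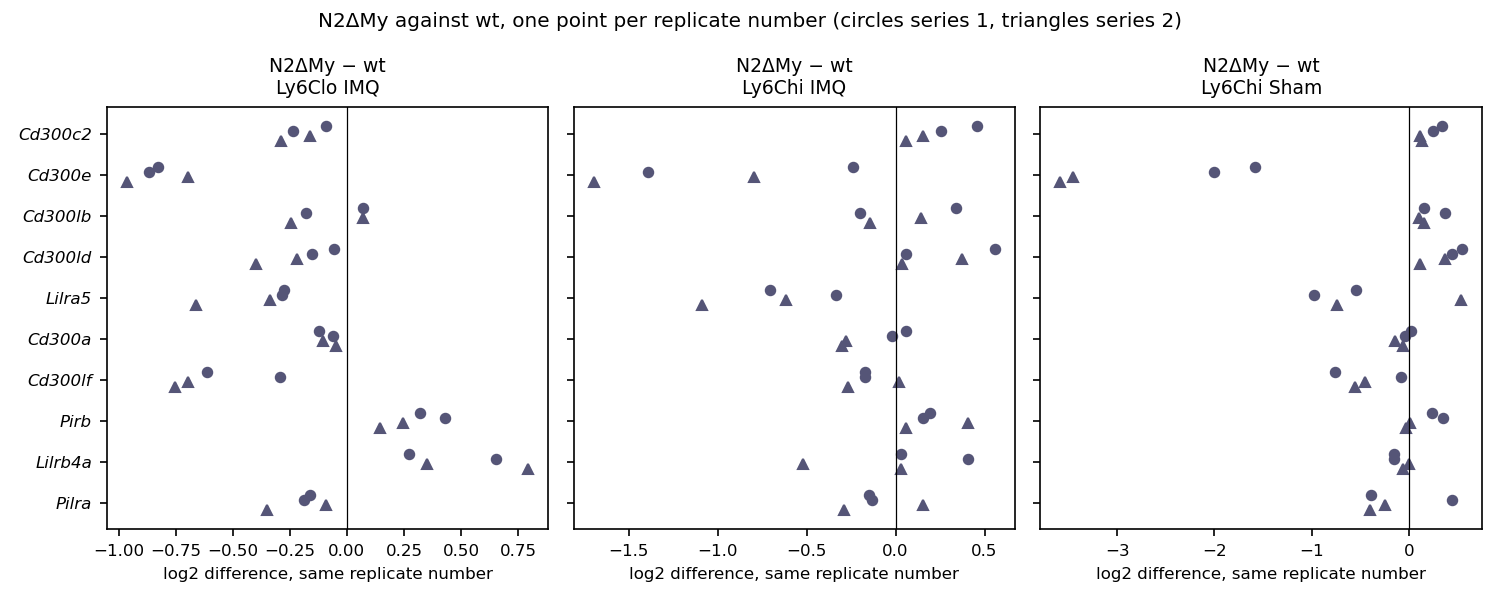
Log2 difference of N2ΔMy minus wt between libraries of the same replicate number (x axis, which differs by panel) for each member in Ly6Clo cells after IMQ, Ly6Chi cells after IMQ and Ly6Chi cells after Sham, 4 points each, circles for library series 1 and triangles for series 2. The 4 points of Cd300e lie below 0 in all 3 panels, between −0.70 and −0.96 in Ly6Clo cells.

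In the same comparison 1 of 2 CD300 relatives tested was higher in N2ΔMy, Cd300lg (1.22). Of 4 PIR and LILR relatives 2 were higher, Lilra6 (1.03) and Lilr4b (1.15), and of 2 PILR relatives 0. Over all genes 3.12% were called higher. The 3 relatives named were lower in Ly6Clo than in Ly6Chi cells of wt, as was Pira2, which was not called here. No adaptor, phosphatase or kinase of the lists was called. Tyrobp, Hcst and Fcer1g differed by −0.04, −0.21 and −0.10, and Ptpn6, Ptpn11 and Inpp5d by −0.16, −0.28 and −0.03. Of the ligands Fn1 was higher (3.44) and Itgb3 lower (−1.36), and of the other inhibitory receptors Cd200r1 was higher (2.76) and Pecam1 and Cd72 lower (−0.76 and −0.88). These differences came beside the shift of the subset markers, of which 3 of 5 Ly6Chi markers were higher and 5 of 7 Ly6Clo markers lower in N2ΔMy, and 6 of 7 macrophage markers tested were higher. The part of that shift in the lower Cd300e was not tested.

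In Ly6Chi cells no member was called between the genotypes. After IMQ 3 of all genes were called (0.0267%) and after Sham 2 (0.0178%), so that few genes of any kind passed. At an unadjusted p under 0.05 there were 2 members and 679 genes after IMQ, and 4 members and 585 genes after Sham. With the block these were 5 members and 1666 genes after IMQ and 5 members and 1372 genes after Sham, with 0 members called by limma. The wt and N2ΔMy libraries did not overlap for Pirb and Lilra5 after IMQ, against 3.84% of all genes, and for Cd300c2 and Cd300e after Sham, against 3.15%. For Cd300e the direction was that of the Ly6Clo cells in both, with N2ΔMy at −1.03 after IMQ (adjusted p = 0.885) and −2.66 after Sham (adjusted p = 0.888), the latter at counts of 0 to 54. With 1 library left out the former lay between −0.53 and −1.63, and the latter was −1.12 with 10 added to the counts and −3.79 with 0.1 added. Cd300e was lower in 4 of 4 same-numbered pairs each time. The share of all genes with one direction in 4 of 4 pairs was not computed for Ly6Chi cells. For Ly6Clo cells it was 35.3%. For Lilra5 after IMQ, 48, 53, 61 and 54 counts in N2ΔMy stood against 79, 67, 94 and 116 in wt (−0.69, adjusted p = 0.622).

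No member's response was called different between the genotypes. The interaction of genotype and subset after IMQ was called for 0 of 10 members and 1.03% of all genes, and the largest values among the members were 0.53 for Lilrb4a, −0.46 for Cd300ld, −0.44 for Cd300lf and −0.43 for Cd300c2 (adjusted p = 0.757, 0.999, 0.645 and 0.704). With 1 library left out these lay between 0.38 and 0.67 for Lilrb4a, −0.17 and −0.75 for Cd300ld, −0.31 and −0.52 for Cd300lf and −0.30 and −0.59 for Cd300c2, so their order was not fixed. No member passed an unadjusted p of 0.05 with all libraries. With the replicate number as a block 4 members did (Cd300c2, Cd300ld, Cd300lf and Lilrb4a), as did 1479 of 11230 genes, against 936 genes without it. Of these Cd300lf had an adjusted p of 0.0440 (limma) at the same −0.44, under the size required, and the adjusted p of the other 3 was 0.177 to 0.337. By the same test 2 of the 4 PIR and LILR relatives were called. The interaction of genotype and treatment in Ly6Chi cells was called by limma for 0 members and 0% of all genes, with 0 members and 177 genes at an unadjusted p under 0.05. Its largest value was that of Cd300e, 1.63 with a 95% interval from −0.53 to 3.78, and it depended on the added constant, being 0.14 with 10 added and 2.75 with 0.1 added.

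Between members, the levels over the 24 libraries ran together most closely for Cd300e and Pilra (Pearson r = 0.97 of log2 counts) and for Cd300c2 and Cd300ld (r = 0.96), and most oppositely for Cd300ld and Lilrb4a (r = −0.95). These values describe 24 libraries that share 6 groups. Among all genes tested, the nearest to Cd300e were Acp5, Lair1 and Tmc8 (r = 0.98, 0.98 and 0.97), to Pilra Retreg1, Hsd11b1 and Mdm1 (r = 0.99, 0.99 and 0.98), to Cd300c2 Pparg, Serpinb6a and Itgb2 (each r = 0.99) and to Cd300ld Smagp and Agpat4 (r = 0.98 each). For Cd300lf they were Lamc1, Cd38 and Mctp2 (r = 0.95, 0.95 and 0.94), and for Lilra5 the gene model AC137969.1, Myo1c and Rps6ka2 (r = 0.97 each). For Lilrb4a they were Zfp516, Dna2 and Cds1 (r = 0.97, 0.96 and 0.95). The members with small differences had lower values, with Kdm3b, Kansl3 and Xist at 0.90 for Cd300a, Ddx39b, Mgat1 and Crk at 0.90, 0.87 and 0.87 for Cd300lb, and Map2k4, Eif4g2 and Twf2 at 0.86, 0.86 and 0.85 for Pirb. Cd38 was listed at 0 in wt Ly6Chi cells after Sham and at 268.5 after IMQ, on average.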

How the data were processed

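Bulk RNA of sorted monocytes was measured in 24 libraries (RNeasy micro, SMARTer Stranded Total RNA-Seq Pico v2), grouped by the labels, in which "+A" was read as Aldara. Per the submitters' processing notes and methods, the authors used Trim Galore 0.4.4, STAR 2.5.3a and GRCm38.p6 and normalised with DESeq2. The deposited table holds these normalised counts rounded to whole numbers, treated here as a score and not as raw counts. Reads per library were inferred from which low whole numbers occur, and kept for the 19 libraries in which a narrower and a wider search gave the same answer. Columns with the authors' own fold changes and p-values were not used.

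Here limma 3.58.1 (R 4.3.3, trend) was run on log2(count + 1) for the groups of each comparison, without a block, over 11230 genes that reached 50 in at least 1 library, with Benjamini-Hochberg adjustment over all of them. A call needed an absolute log2 difference of 0.6 or more together with an adjusted p no higher than 0.05. The fit was tested on simulated data. The members, gene lists and motifs were chosen with earlier results of these data known. All members were named, with at most the 4 largest called genes per list, all adaptors and phosphatases, Notch2, Hes1 and the 3 nearest genes per member, except for some items that are not reported here. Marker genes and the relatives beside them were named after their values were seen. Of 136 list entries 120 were found.

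Same-numbered libraries deviated together in each of 28 pairs of libraries, 4 in each of 7 comparisons (r = 0.16 to 0.62). The numbers were therefore taken as pairs in the replicate block and in the same-numbered differences, while the main fits used no pairing. In some of the pairs a library of another number correlated more closely. The pairing rests on the data and on the library series, since the labels do not say what a number shares. Within a series the values of r were −0.12 to 0.26. Alternatives were the replicate block, the series as covariate or alone, TMM scaling, filters, added constants of 0.1 and 10, a floor of 1.1, no variance trend, all libraries in one fit, and each replicate left out.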

Additional observations from a re-analysis of the deposited data

Results flagged for a closer look

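A single library stood apart in 4 of the 60 sets of 4 libraries (10 members in 6 groups), where the gap of the highest or lowest library to its nearest neighbour exceeded Dixon's 95% critical share of the whole range. Chance gives about 1 in 20 such sets. Cd300e had 54 counts in wt Ly6Chi Sham replicate 3 against 7 to 11 in the other libraries. Cd300a had 5464 counts in wt Ly6Clo replicate 1 against 4758 to 4862. Cd300lb had 1909 counts in wt Ly6Chi IMQ replicate 2 against 1404 to 1463. Pilra had 784 counts in N2ΔMy Ly6Chi Sham replicate 3 against 554 to 586.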

How the results depend on the processing

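Of 1960 recomputed differences of single members, 1909 stayed on their side of the threshold, 66 of which, all uncalled, changed sign, while 32 lost the call, 19 gained one and 0 called differences changed sign. The 5 members called after IMQ in wt became 2 with no filter on low counts (Cd300e, Cd300ld and Lilrb4a lost, adjusted p = 0.0798, 0.193 and 0.0774), and lay between 3 and 5 with 1 replicate left out, the 3 being without wt IMQ replicate 4. The 1 member called in N2ΔMy Ly6Clo cells, Cd300e, became 0 within library series 2 (adjusted p = 0.0512) and 0 with all 24 libraries in one fit (adjusted p = 0.453), and lay between 1 and 2 members with 1 replicate left out (2 without wt replicate 1 or 3 or N2ΔMy replicate 3). With the replicate number as a block 6 members were called after IMQ in wt and 5 in N2ΔMy, each gaining Lilra5, and no other call of a member changed. The cause of these changes was not tested. Over all genes, 537 were called in N2ΔMy Ly6Clo cells (180 to 939 under the alternatives, 939 with the block), 116 for the interaction with subset (18 to 271), 3 in Ly6Chi cells after IMQ (0 to 54, 54 with the block) and 2 after Sham (1 to 7). After IMQ 1066 were called in wt (592 to 1331). Cd300e and Lilra5 had 0 to 66 counts in the Sham libraries, and what depth adds to their spread was not tested.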
